A study of Mus musculus with 39 samples.

Results

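The testis-specific serine kinases are a small family of protein kinases, and 5 of its genes, Tssk1, Tssk2, Tssk3, Tssk4 and Tssk6, were followed here across mouse spermatogenesis. They were chosen by symbol, by a rule that uses no measured value, and all 5 are among the 32285 genes listed in both single-cell tables. The study removed Kdm6a, an X-linked histone H3K27 demethylase gene also called Utx, from male germ cells. The control mice were Kdm6a fl/y; Cre- and the conditional knockout mice (cKO) were Kdm6a fl/y; Ddx4-Cre+, so both carried the floxed allele, and in the cKO the germ-cell promoter of Ddx4 drove the recombinase. No source used here gives the ages of the mice. Each genotype was represented by 1 droplet single-cell RNA library of whole testis, which allows no test between genotypes, and the intervals below cover counting error only. Chromatin was profiled in cKIT+ spermatogonia by ATAC-seq (2 control, 3 cKO libraries) and by CUT&Tag for H3K27me3 (2 and 3), beside 1 IgG library.

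Spermatids are the haploid cells that follow meiosis. Round spermatids build the acrosome and the start of the tail, and elongating spermatids then replace histones with transition proteins and protamines, compact the nucleus and shut down transcription. The Tssk kinases are made almost exclusively in these cells. Mice lacking both Tssk1 and Tssk2, or Tssk6, have been described as male infertile, with defects in sperm shape, and TSSK6 is needed for phosphorylation of the histone variant H2AX at the histone-to-protamine transition. TSSK4 phosphorylates the tail outer dense fibre protein ODF2. The chaperone HSP90 with the cochaperone TSACC activates several of the kinases, and TSKS is their best-known binding partner and substrate.

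Tssk1 and Tssk2 lie side by side on chromosome 16 on the same strand, Tssk1 at chr16:17894203-17895653 and Tssk2 at chr16:17898637-17900024 (GRCm38.p6), with 2984 bases between them. Their upstream sequences are shown because this neighbouring pair shared a block next to the start while their levels, relative to total counts, peaked at different points. Counted per cell, the peaks fell together in the cKO library and apart in the control. In RefSeq, the 250 bases before each start read, with the aligned block in capitals:

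Tssk1, chr16:17893953-17894202, plus strand: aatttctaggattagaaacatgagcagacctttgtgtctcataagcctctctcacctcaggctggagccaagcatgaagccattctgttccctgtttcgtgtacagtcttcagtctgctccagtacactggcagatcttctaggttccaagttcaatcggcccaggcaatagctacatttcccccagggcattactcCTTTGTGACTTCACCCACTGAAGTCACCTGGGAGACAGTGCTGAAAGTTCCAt

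Tssk2, chr16:17898387-17898636, plus strand: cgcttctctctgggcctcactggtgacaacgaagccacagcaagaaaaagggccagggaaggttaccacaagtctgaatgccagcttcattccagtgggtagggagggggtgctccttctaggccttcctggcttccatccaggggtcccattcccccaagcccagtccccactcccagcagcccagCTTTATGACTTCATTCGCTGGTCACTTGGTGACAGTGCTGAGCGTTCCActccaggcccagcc

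The block ran from -53 to -2 of the Tssk1 start and from -63 to -15 of the Tssk2 start, with 41 identical bases in 52 alignment columns (78.8%). Its longest uninterrupted match was GACAGTGCTGA, 11 bases, which 6 of 32851 RefSeq promoter windows of 300 bases contained on either strand, those of Tssk1 and Tssk2 included. Runs of 10 bases were also shared by genes that are not neighbours, Tssk1 with Tssk4 (found in 45 windows) and Tssk3 with Tssk4 (38). The other 3 genes lie on separate chromosomes, each overlapping another gene. Tssk3 (chr4:129489008-129491730) overlaps Fam229a by 541 bases, Tssk4 (chr14:55643651-55652539) overlaps Tm9sf1 by 156 bases, and Tssk6 (chr8:69902184-69903518) overlaps Ndufa13 by 375 bases. No source used here says how reads in such overlaps, or reads matching both Tssk1 and Tssk2, were counted, so values near a shared stretch are uncertain to that extent. The upstream 250 bases of these genes are shown for the single short motif match that each held, in capitals:

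Tssk3, chr4:129490771-129491020, minus strand: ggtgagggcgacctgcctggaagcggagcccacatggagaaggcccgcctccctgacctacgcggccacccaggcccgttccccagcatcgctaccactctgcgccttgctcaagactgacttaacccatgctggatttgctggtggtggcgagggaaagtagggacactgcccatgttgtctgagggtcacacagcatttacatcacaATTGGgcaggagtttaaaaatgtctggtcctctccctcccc

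Tssk4, chr14:55649934-55650183, plus strand: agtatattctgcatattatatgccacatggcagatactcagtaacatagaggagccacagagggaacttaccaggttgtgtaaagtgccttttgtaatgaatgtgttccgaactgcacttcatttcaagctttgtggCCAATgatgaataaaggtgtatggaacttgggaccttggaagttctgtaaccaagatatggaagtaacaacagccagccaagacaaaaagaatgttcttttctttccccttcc

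Tssk6, chr8:69901934-69902183, plus strand: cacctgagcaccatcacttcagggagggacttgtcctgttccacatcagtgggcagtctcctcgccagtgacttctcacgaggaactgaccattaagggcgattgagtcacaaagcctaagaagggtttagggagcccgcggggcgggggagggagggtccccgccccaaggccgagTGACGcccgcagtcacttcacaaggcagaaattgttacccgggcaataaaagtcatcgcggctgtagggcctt

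Each 300-base window (250 bases before to 50 after the start) was searched on both strands for 5 motifs. The CCAAT box (CCAAT) was found in the windows of Tssk4 and, on the opposite strand as ATTGG, Tssk3, and 37.4% of all windows held it. The half-site TGACG of the cyclic AMP response element (CRE), the element bound by the spermatid activator CREM, was found in the Tssk6 window and in 20.8% of all windows. The whole CRE (TGACGTCA, 1.79% of windows, which contains the half-site), TATAAA (13.6%) and the RFX half-site GTTGCC (12.5%) were not found in any of the 5 windows. These matches describe letters only.

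The control library held 229882646 UMIs (unique molecular identifiers, each standing for 1 captured transcript) and the cKO library 172368722. Barcodes with at least 3000 UMIs were kept as cells, 11252 in the control library with a median of 8410.5 UMIs and 8520 in the cKO library with a median of 8499, and 30 barcode sequences occurred in both libraries. Each was assigned to the marker list with the highest score, except 612 control and 447 cKO barcodes that were left unassigned. The round spermatid gate took 1719 control and 1684 cKO barcodes and the elongating gate 4551 and 3325. Markers of the elongating list made up a median of 21.0% of UMIs in the control elongating gate and 23.5% in the cKO, against 1.68% and 1.14% in the round gate. UMIs of Kdm6a, counted near the 3′ end, which may lie outside the deleted part, numbered 162 in 1187 control early spermatocytes and 10 in 760 cKO ones, a log2 CPM ratio of -3.51 (-4.59 to -2.59). In spermatogonia they numbered 28 and 11, with a ratio of -0.96 whose interval held 0 (-2.12 to 0.09), and in late spermatocytes 6 and 4.

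All 5 genes were at their highest in spermatids, and the stage of the highest level split the family. Tssk1 and Tssk4 were higher in round than in elongating spermatids, while Tssk2, Tssk3 and Tssk6 were higher in elongating spermatids, in both libraries. Levels are given in CPM, UMIs scaled to a total of 1000000 for each stage and library, a scale on which one gene is compared between stages and not with another gene.

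Tssk4 was at 253.5 CPM (exact Poisson 95% interval 247.6 to 259.4) in control round spermatids and 30.2 (28.5 to 32.1) in elongating ones. In the cKO library it was at 301.6 (295.2 to 308.1) and 25.7 (23.8 to 27.8). The round spermatid level was thus 8.38 times the elongating level in the control and 11.7 times in the cKO. Tssk1, the other gene that was higher in round spermatids, was at 778 CPM (768 to 788) against 387 (381 to 394) in the control and 808 (797 to 818) against 355 (348 to 363) in the cKO, a log2 difference of -1.01 and -1.19.

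Tssk6 stood at the opposite end. It was at 325 CPM (318 to 332) in control round spermatids and 1937 (1923 to 1952) in elongating ones, and at 235.5 (229.8 to 241.3) and 2135 (2117 to 2154) in the cKO, 5.96 and 9.07 times higher in elongating spermatids. Tssk3 was at 230.0 (224.4 to 235.6) and 835 (826 to 845) in the control and 176 (171 to 181) and 767 (756 to 778) in the cKO, 3.63 and 4.35 times higher. Tssk2 had the smallest difference between the stages by CPM, 928 (917 to 939) against 1467 (1455 to 1480) in the control and 870.4 (859.5 to 881.5) against 1397 (1382 to 1412) in the cKO, 1.58 and 1.60 times higher. With totals without protamine and transition protein genes, Tssk1 had the smallest. Its log2 difference was then -0.72 in the control and -0.85 in the cKO, against 0.95 and 1.02 for Tssk2. For each of the 5 genes the intervals of round and elongating spermatids did not overlap in either library. These intervals cover counting error on large sums of UMIs only. The share of all genes without overlap was not computed, so this is not a trait of the family.

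The direction for Tssk2 depended on the scale. Elongating spermatids gave fewer UMIs per barcode, a median of 6682 against 13268 in control round spermatids and 6180 against 12313.5 in the cKO. As mean UMIs per barcode, Tssk2 was lower in elongating spermatids, 11.6 against 15.3 in the control and 10.2 against 14.3 in the cKO, a log2 difference of -0.40 and -0.50. The other 4 genes kept their direction on that scale, with Tssk6 at 15.3 against 5.36 UMIs per barcode and Tssk4 at 0.239 against 4.18 in the control.

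Most genes were lower on the CPM scale in elongating spermatids. Among genes with a mean of at least 10 CPM over both stages, 62.8% were lower by 1.5-fold or more and 12.4% higher in the control, and 65.9% and 14.1% in the cKO. Of the 5 kinases, 2 were lower and 3 higher by that measure in each library, and their median log2 difference of elongating over round was 0.66 in the control and 0.68 in the cKO, against -1.02 and -1.23 over all genes tested. Both medians of the kinases are the values of Tssk2, whose direction depended on the scale. The 5 genes ranged from -3.07 to 2.58 in the control and from -3.55 to 3.18 in the cKO.

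Before the round spermatid stage, levels were at or under those of free RNA. Late spermatocytes held Tssk1 at 67.8 CPM in the control and 76.8 in the cKO, Tssk2 at 94.0 and 91.7, Tssk3 at 45.4 and 39.0, Tssk4 at 21.5 and 27.8, and Tssk6 at 104 and 99.7. Leydig-like barcodes (Leydig markers at a median of 2.60% and 3.35% of UMIs) are somatic cells that make androgens. They served as background on the assumption, not tested here, that they lack all 5 kinases. Their CPM was higher than in late spermatocytes for all 5 genes in both libraries, for example 135 and 86.2 for Tssk1 and 346 and 229 for Tssk6. These values rest on only 138 control and 105 cKO barcodes. In the cKO the excess was small for Tssk1 (86.2 against 76.8) and Tssk4 (34.0 against 27.8). Free RNA, read from barcodes with 1 to 100 UMIs, was higher again for all 5, with 338 and 287 CPM for Tssk1 and 530.0 and 446 for Tssk6, although the control intervals of Tssk3 in free RNA and in Leydig-like barcodes overlapped. Among the spermatid stages, Tssk6 in round spermatids (325 and 235.5 CPM) was also below free RNA, though above its late spermatocyte level (104 and 99.7). Tssk4 in elongating spermatids (30.2 and 25.7) was below free RNA (88.7 and 78.7) and the Leydig-like level (44.7 and 34.0). The folds between stages given for these genes thus rest on a lower level that was below free RNA. How much of that level is background was not tested. Spermatogonia and early spermatocytes lay between 19.8 CPM (Tssk4, early spermatocytes, cKO) and 410.1 (Tssk6, spermatogonia, cKO). Each value was below the free RNA of its library except Tssk3 in cKO spermatogonia, at 165 (146 to 186) against 158 (148 to 168). Late spermatocytes were the deepest barcodes, with medians of 21500 and 18890 UMIs, and as mean UMIs per barcode 3 of the 5 genes in the control and 0 in the cKO were at or below the Leydig-like value. With doublets removed, 3 were so in the cKO by CPM.

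**Figure D1:**
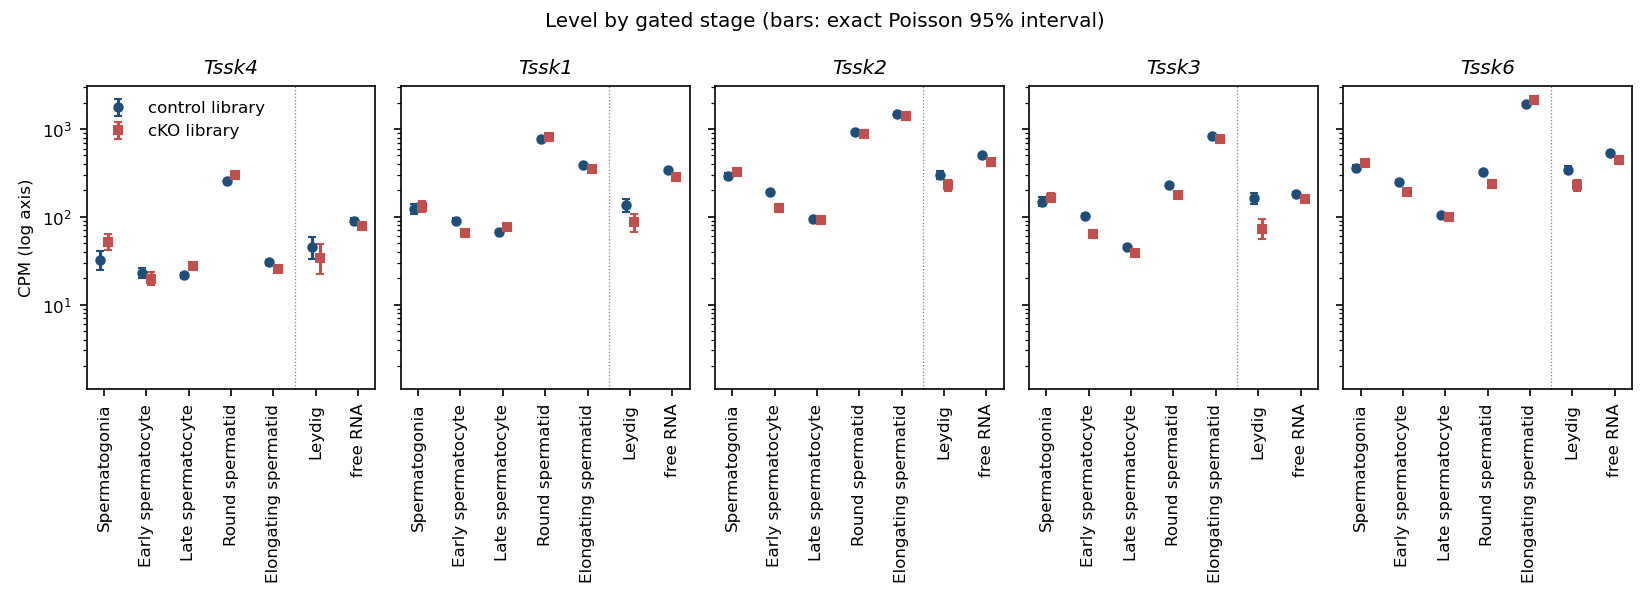
Level of each kinase gene (CPM on a log axis) in 5 gated germ-cell stages, in Leydig-like barcodes and in free RNA, with control as circles, cKO as squares and bars for the exact Poisson 95% interval. Tssk4 stands at 253.5 CPM in round and 30.2 in elongating spermatids of the control library and Tssk6 at 325 and 1937, while spermatocyte levels lie under the free RNA points at the right.

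The share of barcodes with at least 1 UMI followed the same split once each barcode was thinned to 3000 UMIs. In control barcodes, Tssk4 was found in 52.0% of round (exact binomial 95% interval 49.6 to 54.4) and 9.27% of elongating spermatids (8.45 to 10.2), against an interval of 7.92% to 19.8% in Leydig-like barcodes, so its elongating share was not above this background. In the cKO the Tssk4 shares were 58.7%, 7.97% and 6.67%. Tssk6 was found in 50.1% of round and 99.0% of elongating spermatids of the control, against 44.2% of Leydig-like barcodes (35.8 to 52.9), and in 36.6% and 99.6% in the cKO, against 27.6% (19.3 to 37.2). The round spermatid share of Tssk6 therefore lay inside the control Leydig interval, and just inside the cKO one. Tssk3 was found in 47.5% and 89.8% of the control stages, against 31.9% of Leydig-like barcodes (24.2 to 40.4), and in 37.9% and 88.0% in the cKO, against 13.3% (7.49 to 21.4). For Tssk2 the control shares were 87.7% and 95.9%, against 42.8%, and the cKO shares 87.8% and 95.5%, against 32.4%. Tssk1 was found in 50.2% of control and 43.2% of cKO elongating spermatids and in 88.1% of cKO round ones, against Leydig-like shares of 30.4% and 14.3%. Without thinning, the control round and elongating shares were 88.5% and 19.7% for Tssk4 and 79.8% and 99.8% for Tssk6, at median depths of 13268 and 6682 UMIs, and the Leydig shares were 20.3% and 62.3% at 7098 UMIs.

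Spermatids of both gates were then placed in 10 bins by the ratio of elongating to round marker UMIs, from the roundest (bin 1) to the most elongated (bin 10). No Tssk gene was among those markers. The genes were staggered along the bins in an order that was the same in both libraries. By the mean bin, weighted by CPM, the order was Tssk4 (2.82 in the control, 2.73 in the cKO), Tssk1 (4.20 and 4.15), Tssk2 (5.93 and 5.84), Tssk3 (6.72 and 6.70) and Tssk6 (6.95 and 6.99). Tssk3 and Tssk6 were the closest neighbours in that order. With 1 library per genotype these positions have no replicate error.

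Tssk4 was highest in bin 1, at 294 CPM in the control and 322 in the cKO. It stayed at 285 and 306 in bin 2 and 212 and 261 in bin 3, and stood at 76.7 and 81.9 in bin 4 and 16.0 and 13.6 in bin 10. The largest step thus lay between bins 3 and 4, where the barcodes pass from the round to the elongating gate. Tssk1 peaked in bin 3, at 819 CPM in the control and 871 in the cKO, from 694 and 772 in bin 1. It was lower in each later bin in both libraries, with 511 and 539 in bin 6 and 111 and 100.2 in bin 10.

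Tssk2 had the broadest course, with its highest level in bin 6 at 1615 and 1597 CPM, and 2.30 and 2.18 times between its highest and lowest bins. It was at 704 and 732 in bin 1 and still at 1209 and 1164 in bin 10. By CPM, Tssk1 and its chromosomal neighbour Tssk2 therefore had their highest bins 3 apart. As mean UMIs per barcode, both were highest in bin 3 in the cKO, while in the control Tssk1 was highest in bin 1 and Tssk2 in bin 3. In bin 10 Tssk1 was at 13.6% of its highest CPM in the control and 11.5% in the cKO, and Tssk2 was at 74.8% and 72.9%.

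Tssk3 and Tssk6 had their highest CPM in bin 10. Tssk3 was at 124 CPM in bin 1, 326 in bin 3, 696 in bin 4 and 969 in bin 10 of the control, and at 114, 311, 621 and 854 in the cKO. Tssk6 was at 65.2, 574, 1594 and 2239 CPM in the same control bins, and at 54.6, 627, 1574 and 2421 in the cKO. The ratio of bin 10 to bin 1 was 34.3 in the control and 44.4 in the cKO. The low ends of 4 of these courses lay below free RNA of the same library: Tssk4 in bins 4 to 10 of the control and 5 to 10 of the cKO, Tssk1 in bins 8 to 10 and 9 to 10, and Tssk3 and Tssk6 in bins 1 and 2 of both. Ratios and shares that rest on those bins therefore rest on levels below free RNA. Against the Leydig-like level, those bins were mixed. Tssk1 in control bin 8 (270 against 135 CPM) and Tssk3 in cKO bin 2 (157 against 72.8) were above it. Tssk1 in control bin 10 (111) and Tssk4 in control bin 10 (16.0 against 44.7) were below it. How much of these levels is background was not tested. When spermatids were instead ordered by their share of protamine and transition protein UMIs, the order of the 5 mean bins was the same, but the order of the highest bins was not. Tssk2 was then highest in bin 7 (control) and bin 8 (cKO), after Tssk3, in bin 4 and bin 5, and in the cKO also after Tssk6, in bin 10 and bin 5. The bins differed in depth, from a median of 17298 UMIs per control barcode in bin 1 to 4628.5 in bin 4 and 8213 in bin 10. As mean UMIs per barcode, Tssk6 was also highest in bin 10, at 21.7 and 19.1, against 1.46 and 1.01 in bin 1. Tssk2 was highest in bin 3 on that scale, at 15.9 and 18.9.

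**Figure D2:**
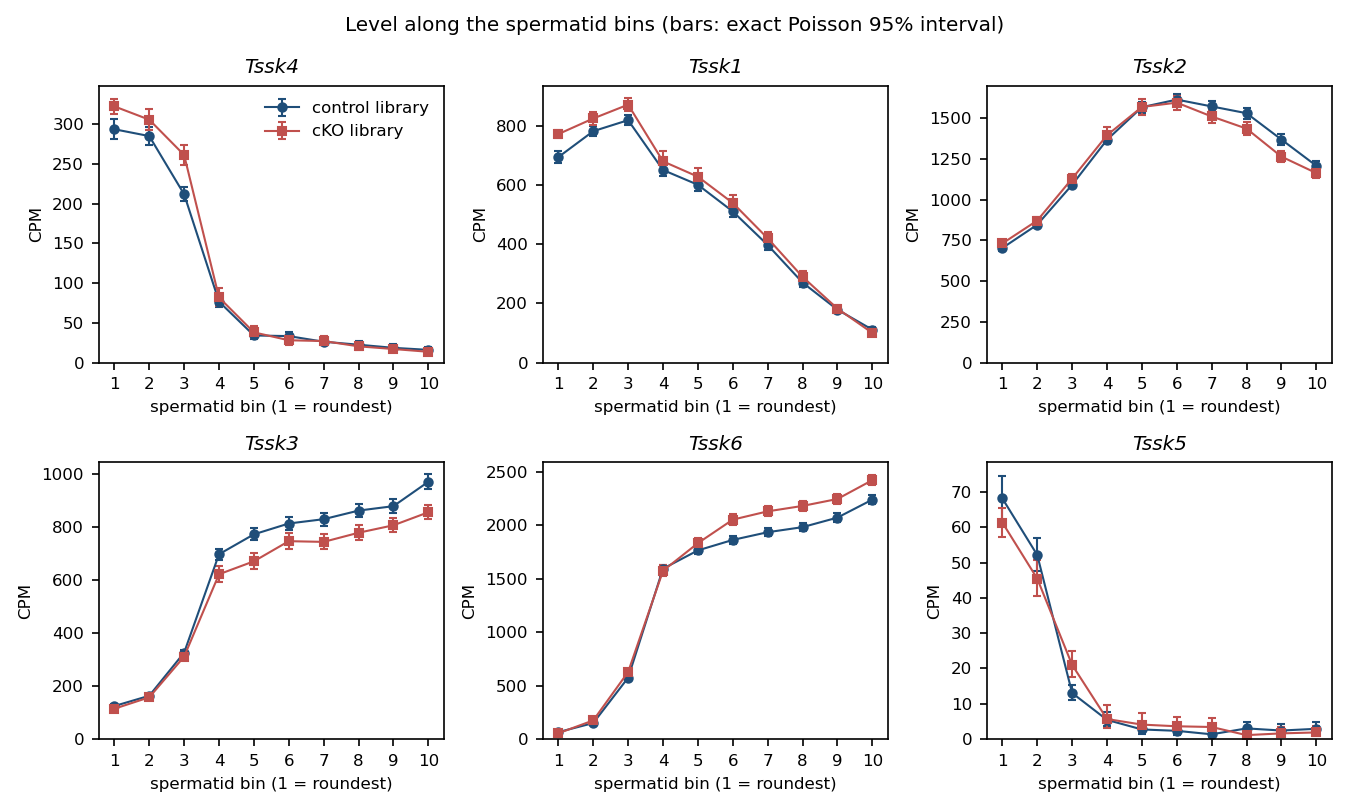
CPM of each kinase gene, and of the family gene Tssk5, along 10 spermatid bins ordered from roundest to most elongated, in the control (circles) and cKO (squares) libraries, with exact Poisson 95% intervals as bars and each vertical axis starting at 0. Tssk4 is highest in bin 1, Tssk1 in bin 3, Tssk2 in bin 6, and Tssk3 and Tssk6 in bin 10, in both libraries.

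Detection of Tssk4 and Tssk6 was also counted per barcode, thinned to 3000 UMIs. In bins 1 and 2 together, Tssk4 without Tssk6 was found in 42.8% of 923 control barcodes and 48.4% of 1266 cKO barcodes, and Tssk6 without Tssk4 in 13.1% and 8.69%. In bin 3, both were found in 34.5% of 763 control and 40.6% of 392 cKO barcodes. In bins 4 to 10, Tssk6 without Tssk4 was found in 89.7% of 4584 control and 91.6% of 3351 cKO barcodes, and the reverse in 0.196% and 0.0597%. In Leydig-like barcodes, the background for these shares, Tssk6 without Tssk4 was found in 36.2% of 138 control and 26.7% of 105 cKO barcodes, Tssk4 without Tssk6 in 5.07% and 5.71%, and both in 7.97% and 0.952%. The shares of Tssk6 without Tssk4 in bins 1 and 2 were thus below this background. A median of 3 of the 5 genes was detected per barcode in bins 1 and 2 and in bins 4 to 10, and 4 in bin 3, in both libraries.

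Across the 3 earlier stages and the 10 bins of both libraries (26 points that share libraries and depth), the correlation of log2(CPM + 1) between family members was 0.94 for Tssk3 with Tssk6, 0.91 for Tssk2 with Tssk3, 0.72 for Tssk1 with Tssk4, 0.68 for Tssk1 with Tssk2 and -0.54 for Tssk4 with Tssk6. Outside the family, among 3712 genes with a mean of at least 20 CPM in elongating spermatids, the closest courses to Tssk4 were those of Fam24a (0.99), Spaca3, an acrosomal membrane protein gene, and Spata45. Those closest to Tssk1 were 1700093K21Rik (0.98), Gm31752 and 1700025B11Rik. Tssk2 was nearest to Ccdc70 (0.998), Spata19, which encodes a mitochondrial protein of the sperm midpiece, and Galntl5. Tssk3 was nearest to Habp4 (0.998), Ubl4b and Ccdc91. Tssk6 was nearest to Fam71f2 (0.999), Prkar2a, a regulatory subunit gene of protein kinase A, and Ccdc57.

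The further family gene Tssk5, at chr15:76371958-76375191, was also followed. It was at 38.9 CPM in control and 47.0 in cKO round spermatids, and at 2.89 and 2.77 in elongating ones. Its highest bin was bin 1 in both libraries, at 68.1 and 61.3 CPM, and its mean bin, 2.25 and 2.32, came before that of Tssk4. Its correlation with Tssk4 over the 26 points was 0.93.

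The known partners of the kinases were spread over the same interval. Tsks was at 590 CPM in round and 1068 in elongating spermatids of the control and at 538 and 1098 in the cKO, with mean bins of 6.07 and 6.04, just after Tssk2. Tsacc was at 605 and 1264 in the control and 633 and 1357 in the cKO, with mean bins of 6.32 and 6.27. The ODF2 gene Odf2 was at 2013 and 4763 in the control, with a mean bin of 6.48, whereas its kinase gene Tssk4 had a mean bin of 2.82. The chaperone gene Hsp90aa1 was at 2023 and 555 CPM in the control with a mean bin of 3.62, and its cochaperone Cdc37 at 50.8 and 15.7. H2afx, which encodes the histone H2AX, was at 15.0 and 8.94 CPM, below its 30.3 in free RNA. Pdpk1, which encodes a kinase able to phosphorylate TSSK3, was at 154 and 198 CPM, with its highest bin in bin 5 in both libraries.

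Of the 10 partner genes, 6 were lower and 3 higher in elongating than in round spermatids by 1.5-fold or more in the control, and 6 and 4 in the cKO, with Pdpk1 past that fold in the cKO alone, 1.62 times against 1.28. The lower genes were Hsp90aa1, Hsp90ab1, Cdc37, Ppp1cc, Crem and H2afx, of which Hsp90ab1, Cdc37 and H2afx were below free RNA in both spermatid stages of both libraries. Hsp90aa1, Ppp1cc and Crem were below it in elongating spermatids of both libraries, for example Hsp90aa1 at 555 against 1479 CPM in the control. Over all genes tested, 62.8% and 65.9% were lower, near the partners' share, and 12.4% and 14.1% were higher, below the partners' 3 and 4 of 10. Of 6 other kinases of spermiogenesis, 4 were lower (Csnk2a2, Mak, Stk33 and Prkaca, the last below free RNA in both stages) and Cdk16 was higher, at 28.4 and 75.2 CPM in the control, in both libraries. Csnk2a2 and Stk33 in elongating spermatids, and Cdk16 in round ones (28.4 against 31.9 CPM in the control), were also below free RNA in both libraries. Camk4, at 116 and 79.9 CPM in the control, did not reach the fold in either. Their share of lower genes, too, was near the background.

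**Figure D3:**
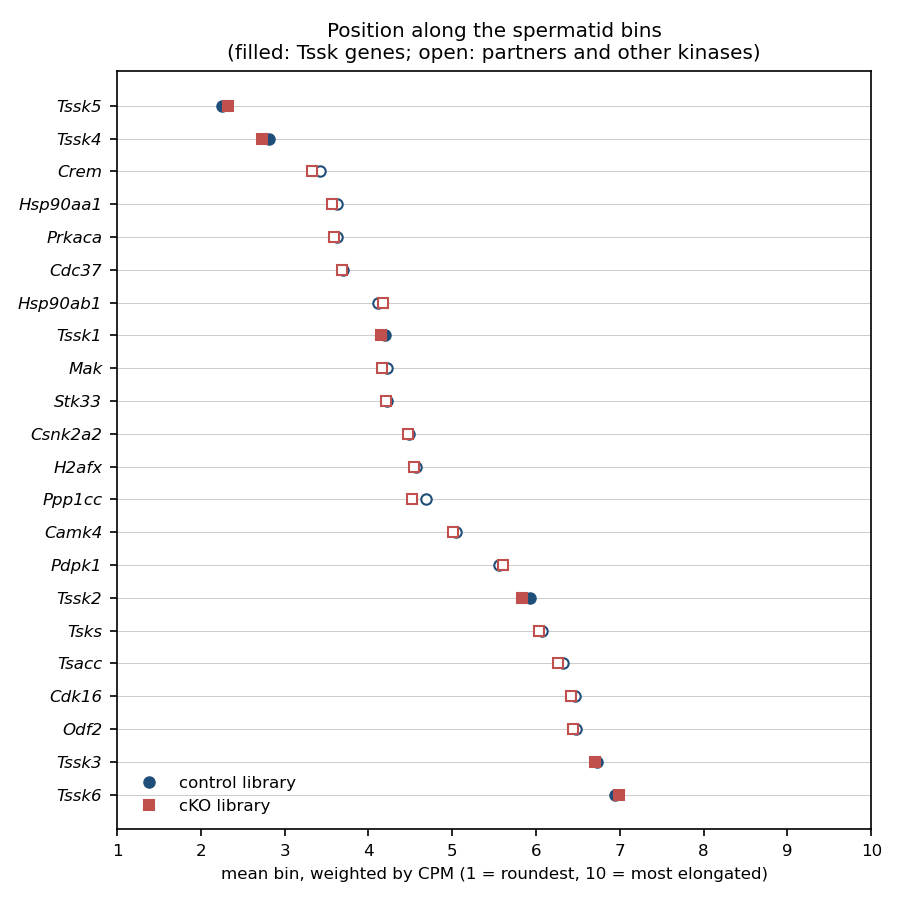
Mean spermatid bin of each gene, weighted by CPM (1 is the roundest, 10 the most elongated), in the control (circles) and cKO (squares) libraries, with Tssk genes filled and partner genes and other kinases open. Tssk4 at 2.82 and Tssk6 at 6.95 in the control library lie near the ends of the range, and the points of the 2 libraries nearly coincide for each gene.

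Between genotypes, none of the 5 kinases differed by 1.5-fold or more in either spermatid stage. In round spermatids the log2 ratio of cKO over control was 0.05 for Tssk1 (95% interval 0.03 to 0.08), -0.09 for Tssk2 (-0.12 to -0.07), -0.38 for Tssk3 (-0.44 to -0.33), 0.25 for Tssk4 (0.21 to 0.30) and -0.46 for Tssk6 (-0.51 to -0.42). In elongating spermatids it was -0.13 for Tssk1 (-0.16 to -0.09), -0.07 for Tssk2 (-0.09 to -0.05), -0.12 for Tssk3 (-0.15 to -0.10), -0.23 for Tssk4 (-0.38 to -0.09) and 0.14 for Tssk6 (0.12 to 0.16). Of 7296 genes tested in round spermatids, 5.62% were lower and 0.315% higher in the cKO by that fold, and of 5416 in elongating spermatids 4.67% and 0.111%. Free RNA was lower in the cKO library for all 5 genes, with log2 ratios of -0.24 for Tssk1, -0.28 for Tssk2, -0.22 for Tssk3, -0.17 for Tssk4 and -0.25 for Tssk6. Leydig-like barcodes were also lower for all 5, past 1.5-fold for Tssk3 (-1.16), Tssk1 (-0.65) and Tssk6 (-0.59). In round spermatids Tssk2, Tssk3 and Tssk6 were lower too, while Tssk1 and Tssk4 were higher. With free RNA subtracted at an assumed 5% of UMIs, the round spermatid ratios were -0.39 for Tssk3 and -0.49 for Tssk6, against -0.38 and -0.46 without subtraction. The true share of free RNA was not measured, so this subtraction cannot show how much background contributed to them. At stages with levels near background, Tssk2 (-0.61) and Tssk3 (-0.67) in early spermatocytes and Tssk4 (0.71) in spermatogonia were past the fold. The share of all genes past the fold was not computed for these stages or for Leydig-like barcodes, so these calls cannot be ranked against other genes. The median log2 ratio over all genes was 0.04 in round and -0.08 in elongating spermatids. None of the 10 partner genes and 6 other kinases reached the fold in round spermatids, and none of the 9 and 5 above 10 CPM did in elongating ones. With doublets removed, Tssk6 in round spermatids stood at -0.67, past the fold.

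The spermatids of the 2 libraries did not hold the same mix of bins. Bin 1 held 306 control and 755 cKO barcodes, bin 2 617 and 511, bin 3 763 and 392, and bin 4 854 and 320. Tssk6 and Tssk3, with the lowest pooled ratios in round spermatids, were at their lowest CPM in bin 1, and Tssk4, with the highest ratio, was at its highest there. Pooled over round and elongating spermatids together, the log2 ratio was 0.09 for Tssk1, -0.14 for Tssk2, -0.33 for Tssk3, 0.43 for Tssk4 and -0.13 for Tssk6. With equal weight for each of the 10 bins, each was nearer to 0, and that of Tssk6 changed sign. The mean log2 ratio over bins was 0.06 for Tssk1, -0.02 for Tssk2, -0.13 for Tssk3, 0.01 for Tssk4 and 0.08 for Tssk6, against a median of -0.02 and a range from the 5th to the 95th percentile of -0.47 to 0.19 over 4152 genes. All 5 values lay within that range. The Tssk4 value joins a mean of 0.18 over bins 1 to 3, where its level was highest, with -0.06 over bins 4 to 10. In nearly all of those later bins Tssk4 was below free RNA, so its equal-weight value rests mostly on low levels. Whether the numbers of barcodes per bin differ between mice of the 2 genotypes could not be tested with 1 library each.

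Tssk3 was lower in the cKO library in 10 of 10 bins, from -0.05 in bin 2 to -0.20 in bin 5, and its interval left out 0 in 8 of them. In bins 1 and 2 it was not above free RNA, which was itself lower in the cKO, and in bins 4 to 10 it was lower in 7 of 7. All bins come from the same 2 libraries, so agreement between bins is not replication. The share of all genes lower in every bin was not computed. Tssk6 was higher in 8 of 10 bins, with a log2 ratio of 0.22 in bin 2 and 0.11 to 0.14 in bins 6 to 10, and lower in bin 1 at -0.26 (-0.43 to -0.09). It was below free RNA both in bin 1, at 65.2 CPM in the control and 54.6 in the cKO, and in bin 2, at 149.8 and 174.5. Tssk4 was higher in bins 1 to 3, by 0.13, 0.10 and 0.30. Tssk1 was higher in 9 bins, at 0.15 or less. Tssk2 was higher in 5 bins and lower in 5. In no bin did any of the 5 genes reach 1.5-fold.

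**Figure D4:**
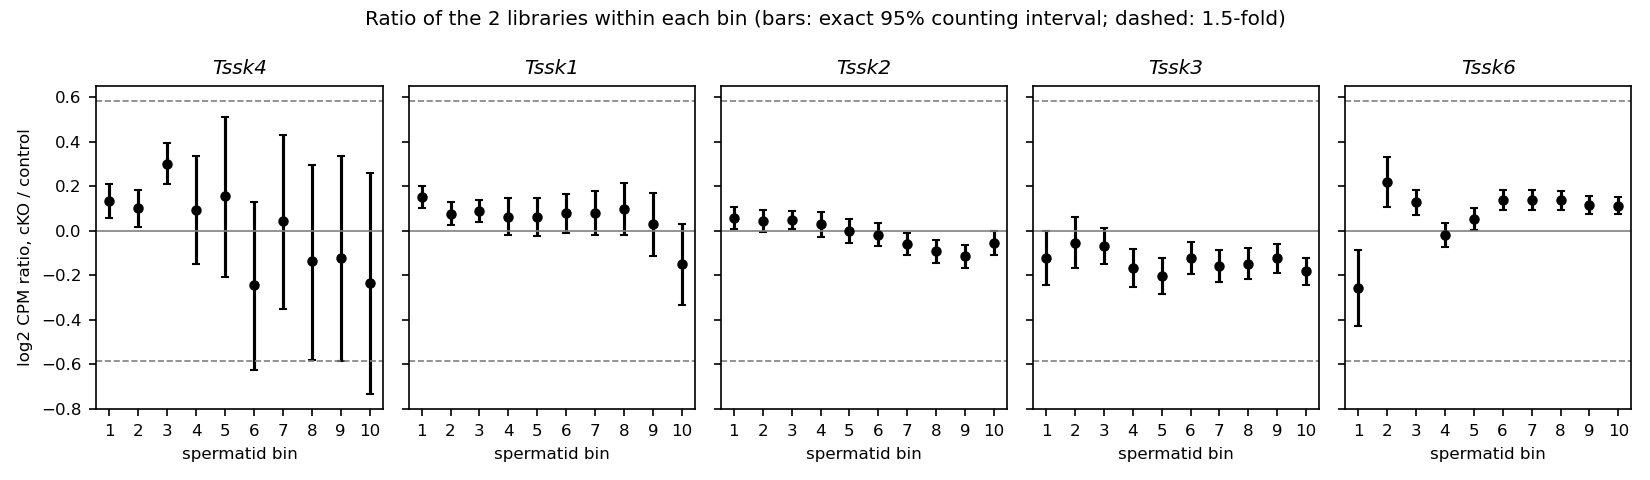
Log2 ratio of CPM in the cKO over the control library within each of 10 spermatid bins for each kinase gene, with bars for the exact 95% counting interval, the solid line at 0 and dashed lines at 1.5-fold. Tssk3 lies under 0 in 10 of 10 bins and Tssk6 over 0 in 8, and all points lie between the dashed lines. The bins share the same libraries and are not replicates.

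In cKIT+ spermatogonia, differentiating cells that precede meiosis, peaks of open chromatin within 1000 bases of the start were found at Tssk3 and Tssk6. Tssk6 had an ATAC-seq peak in 2 of 2 control and 3 of 3 cKO libraries, and Tssk3 in 2 of 2 and 2 of 3. Tssk1, Tssk2 and Tssk4 had none in any of the 5 libraries, and their nearest peaks lay 2032 to 2302, 6466 to 6736 and 6265 to 6499 bases away. The Tssk4 start used, at 55650184, lies inside an annotated span that begins at 55643651. Peaks at that upstream end were not searched for. Over all 32812 RefSeq starts, 27.2% to 47.8% had such a peak, depending on the library.

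Some of these peaks also covered the start of an overlapping neighbour. At Tssk6, the peak of control replicate 1 (chr8:69901449-69903466, 3.60-fold enrichment as the authors' peak list gives it), of control replicate 2 (chr8:69901349-69903558, 4.00-fold) and of cKO replicate 3 (chr8:69901377-69903519, 3.63-fold) covered the starts of both Tssk6 and Ndufa13, a gene of respiratory complex I. In cKO replicates 1 and 2 the nearest peaks covered neither start and missed that of Tssk6 by 984 and 358 bases. Replicate 2 had 2 peaks within 1000 bases, and only the stronger was examined for starts. At Tssk3, each peak (for example chr4:129491002-129491709 in control replicate 1, 4.32-fold) covered the start of Fam229a and ended 138 to 232 bases short of the Tssk3 start. That start, at 129490770, lies inside the annotated Tssk3 span, whose upstream end is at 129491730. The peaks of control replicate 2 and cKO replicate 3 covered this upstream end. Those of control replicate 1 and cKO replicate 2 stopped just before it, at 129491709 and 129491714. The list of cKO replicate 1, the library without a Tssk3 peak, had a peak at 27.2% of all starts, the lowest share of the 5. That of cKO replicate 2 had one at 33.5%, the next lowest, so both lists without a peak over the Tssk6 start were the sparsest.

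No H3K27me3 peak lay within 1000 bases of any of the 5 starts in the 2 control or the 3 cKO libraries. H3K27me3 is the repressive mark that KDM6A removes. The nearest such peak was 11071 bases from the Tssk6 start, in control replicate 1, and the peak lists covered 7.80% to 14.9% of all starts. The IgG library had no peak within that distance of these starts and one at 0.576% of all starts. The peak lists were deposited per library, and a start without a peak is one where none passed the authors' threshold.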

How the data were processed

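Members and gene lists were chosen with earlier results of these data known. The authors deposited raw UMI counts per gene for 6794880 barcodes per single-cell library, made with Cell Ranger 4 per the file headers and mm10 per the submitters' processing notes, with no cells selected. Dissociated whole testis was captured with a 10x 3′ kit, per the labels' protocols. The deposited ATAC-seq peak lists give fold enrichment (a ratio) and −log10 q per peak, and the deposited CUT&Tag lists give summed signal per peak; the processing notes name MACS2, SEACR, Bowtie2 and mm10. Both peak types were used as deposited.

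Barcodes with at least 3000 UMIs were gated by the highest mean z-score of log counts (UMIs per 10000) over 10 marker lists, and left unassigned when the lead over the next list was under 0.1. No doublets or mitochondria-rich barcodes were removed. UMIs were summed per stage and library and scaled to CPM. Bins are deciles of log2 (elongating + 1) over (round + 1) marker UMIs, libraries weighted equally. Intervals are exact Poisson or binomial at 95%. Genes at a mean of 10 CPM or more form the background for 1.5-fold. The script was tested on simulated data. Genes named are the 5 members, Tssk5, 10 partners, 6 other kinases, and the 3 genes most correlated with each member. Promoter sequences are from RefSeq (GRCm38.p6, the assembly called mm10 in the files), matched for 5 of 5 members, and starts are those of that table. At Tssk3 and Tssk4 they lie inside the annotated gene span. Transcript tables of bulk testis and of the cell line were not used, because their transcript identifiers are not paired with gene names in the tables used here. Python 3.11.15, scipy 1.17.1, numpy 2.4.6 and scanpy 1.11.5 were used.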

Additional observations from a re-analysis of the deposited data

How the results depend on the processing

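Stage ratios and the counts made from them were recomputed with minimums of 2000 and 5000 UMIs per barcode, a gate margin of 0.5, classes from 24 clusters, Scrublet doublets removed (591 control and 512 cKO barcodes), a mitochondrial filter, totals without protamine and transition protein genes, free RNA subtracted and ratios centred on the median of all genes. Mean UMIs per barcode and leaving out the 30 shared barcodes were added after seeing the data. Mean bins were recomputed with 5 bins and another order, shares by thinning and a minimum of 5000 UMIs, peaks with another window and q, and pooled ratios with equal weight for each bin; ratios in single bins, correlations and co-detection were not recomputed. Of 235 recomputed ratios and shares of single genes, 130 stayed within their counting interval and 5 changed sign. Mean positions, scaled from 0 to 1, have no such interval and moved by at most 0.0220. The 5 ratios that changed sign were Tssk2 in elongating over round spermatids, at -0.40 (control) and -0.50 (cKO) as UMIs per barcode, and 3 ratios of cKO over control under 1.5-fold: Tssk4 in elongating spermatids, 0.10 with classes from clusters, Tssk2 there, 0.01 when centred, and Tssk6 over both stages, 0.08 with equal bin weight. The count of kinases past 1.5-fold between genotypes in round spermatids was 1 with doublets removed and 0 otherwise. In late spermatocytes 5 of 5 kinases were at or below the Leydig-like level; this was 3 in the control and 0 in the cKO as UMIs per barcode, and 3 in the cKO with doublets removed. The order of the 5 mean bins was the same with 5 bins and when spermatids were ordered by the share of protamine and transition protein UMIs. In that second order, Tssk3 had its highest bin in bin 4 (control) and 5 (cKO) and Tssk6 in bin 5 in the cKO. Kinases with their highest bin past the middle then numbered 2 in the control and 1 in the cKO, in place of 3 in each. With 5 bins they numbered 2 in each library. With 250 bases around the start in place of 1000, 0 kinases in place of 1 had ATAC-seq peaks in each cKO library. The cause of these changes was not tested. No paired analysis was possible because each genotype had 1 single-cell library and the peak comparison had no test. Other settings for bulk transcripts were not run, since those tables were not used.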

Other observations

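Barcodes gated to the myoid and endothelial lists held Tssk6 RNA at levels between those of free RNA and of elongating spermatids in both libraries. Tssk6 was at 1039 CPM in 262 control barcodes of the myoid gate and 912 in 205 of the endothelial gate, and at 834 and 914 in the 189 and 146 cKO barcodes. Markers of the elongating spermatid list made up a median of 15.3% and 15.9% of UMIs in those control barcodes and 7.10% and 12.7% in the cKO ones, against 0.0107% for the myoid list in the control myoid gate, and the control median mitochondrial share was 0.568% and 0.347%, near that of elongating spermatids (0.213%) and unlike that of Leydig-like barcodes (7.98%). The Sertoli gate held Tssk6 at 977 CPM in the control and 739 in the cKO, beside elongating markers at 4.24% and 1.69% of UMIs. These gates were not used as background for that reason, and Leydig-like barcodes, with elongating markers at 1.09% and 0.630%, were.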
